A study of Mus musculus with 2 samples.

Results

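The genes described here encode the machinery of the lysosome, and they were followed in murine macrophages with and without IL-4. A list of 42 genes was taken by gene name, with no threshold on a measured value, out of the 15623 genes listed in either library. It holds 15 genes of the vacuolar proton pump (V-ATPase), 6 proteins of the lysosomal membrane and 3 transcription factors of the MiT family. The other 18, called hydrolases and cofactors below, are acid hydrolases, cofactors of these enzymes and Grn, the precursor of the granulins. All 42 members were listed in both libraries, and the one with the fewest reads, Arsb, had 1134 over both.

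RNA was sequenced from peritoneal macrophages of wild-type mice on the C57BL/6 background, recruited to the peritoneum by an injection of thioglycollate. The cells were purified by adherence and starved in medium with little serum, and then received no treatment (NT) or IL-4 during 6 h. IL-4 is a cytokine of allergic and helminth immunity that acts through the transcription factor Stat6 and turns macrophages to the alternative, or M2, state. Each group held 1 library, so no difference below was set against the spread between replicates, and the intervals given cover counting error only. The labels give peritoneal macrophages as the source and bone marrow as the tissue, and the number of mice behind each library is not given in the labels.

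Lysosomes break down material that a macrophage takes up or recycles from its own cytoplasm. Their hydrolases work at acid pH, which the V-ATPase maintains by coupling ATP hydrolysis in its cytosolic V1 sector to proton transport through its membrane-embedded V0 sector. Many of the genes share a short promoter motif, the CLEAR element, which is bound by TFEB, TFE3 and MITF when these factors are in the nucleus.

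Depth was 11035641 expected counts in NT, spread over 14842 genes, and 11250099 in IL-4, spread over 14717. A floor of 3 counts corresponded to 0.272 CPM (counts divided by the library total and put on a common scale) in NT and to 0.267 CPM in IL-4, far below every member. The M2 genes Arg1 (30 counts in NT and 7711 in IL-4) and Mrc1 (679 and 6962 counts) were higher in the library labelled IL-4. All 8 macrophage markers examined were listed in both libraries, and single ones differed in either direction. Csf1r had 6236 counts in NT and 11896 in IL-4, and Cd14 had 1219 and 591. Summed counts of B cell markers were 106 in NT and 96 in IL-4, those of T cell markers 8.74 and 6.16, those of neutrophil markers 35 and 21, those of eosinophil markers 53 and 28, those of mast cell markers 30 and 18, and those of dendritic cell markers 25.83 and 27.5. The markers of mesothelial cells or fibroblasts summed to 1128 and 878 counts, mostly from Col1a1 and Col3a1. The neutrophil genes S100a9, Ly6g and Retnlg and the eosinophil gene Epx were listed in neither library. Of 3 adipocyte markers, Adipoq was listed at 0 in NT and at 139 counts in IL-4, and Plin1 and Cfd were not listed. The part of these other cells in the values below was not tested.

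To ask how the lysosomal genes stood upon IL-4 stimulation, each member was given a log2 ratio of IL-4 over NT, computed from counts scaled to the library totals with 0.5 count added. A gene was called higher or lower when this ratio was at least 0.75 in size, or 1.682-fold, and its exact 95% counting interval left out 0. By this rule 2 of the 42 members rose and 0 fell. The pair that rose was Atp6v0a1, a membrane subunit of the proton pump, and Laptm4a, a membrane protein of late endosomes and lysosomes. Over all 15593 genes compared, 4.07% were called higher and 6.28% lower. Among the 3700 genes with at least 1100 reads in both libraries together, a depth like that of the members, 4.3% were called higher and 5.38% lower, so 2 of 42 members called higher was close to the share of other genes, while no member was called lower. The median log2 ratio was 0.06 over the members, against 0.01 over the genes of like depth. The intervals of 19 members lay above 0, those of 9 lay below 0 and those of 14 included 0, while 36.9% of genes of like depth lay above 0 and 35.3% below. After the trend of the ratios with transcript length was subtracted, the intervals of 14 members lay above 0 and those of 15 below. By that measure 19 of the 42 ratios were above 0, against 28 before. In bulk RNA, fewer cells of a type and less RNA per cell cannot be told apart.

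**Figure D1:**
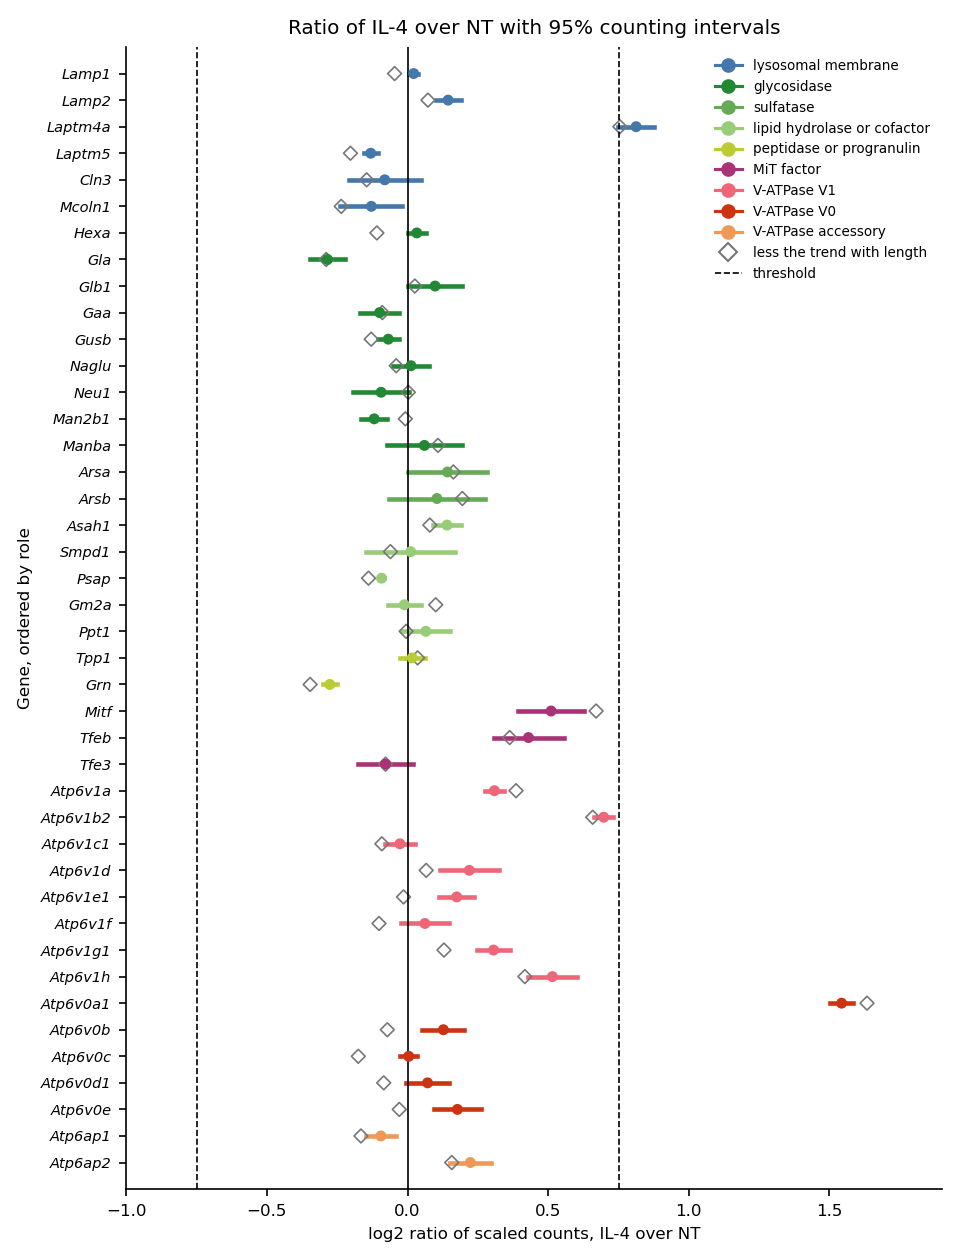
Log2 ratio of IL-4 over NT (horizontal axis) for each of the 42 members, ordered by role, from 1 library per group. Filled points are ratios with bars for 95% counting intervals, open diamonds are ratios after the trend with transcript length was subtracted, and dashed lines mark the threshold of 0.75. Atp6v0a1 at 1.54 and Laptm4a at 0.81 lie past the threshold, Atp6v1b2 at 0.70 lies just short of it, and the hydrolases lie between -0.28 and 0.14.

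The V0 sector carries protons across the membrane. In this sector Atp6v0a1 rose while the other members stayed within 0.18 of no difference on the log2 scale. Atp6v0a1 (chromosome 11, 101009422 to 101063719, GRCm38) encodes a form of the large a subunit, which holds the path taken by protons and directs the pump to its membrane. It had 6335 expected counts in NT and 18821 in IL-4, or 142 and 415 FPKM, the level per length of transcript. The log2 ratio was 1.54 (1.502 to 1.584), which is 2.91-fold. Of the 3700 genes of like depth 47 had a higher ratio, and the place of Atp6v0a1 among all genes ordered by FPKM moved from 470 to 179. Atp6v0c, the proteolipid that forms the rotating ring together with Atp6v0b, was the most abundant member of the sector, with 1385 FPKM in NT and 1389 in IL-4 and a log2 ratio of 0.0043 (-0.03 to 0.04). The levels of Atp6v0b were 255 and 279 FPKM, a log2 ratio of 0.13 (0.05 to 0.20). Atp6v0e, a small membrane subunit, had 251 and 284 FPKM and a log2 ratio of 0.18 (0.09 to 0.26). Atp6v0d1, a form of the d subunit that links the ring to the central stalk, had 151 and 159 FPKM and a log2 ratio of 0.07 whose interval, -0.01 to 0.15, included 0.

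Several subunits of the pump are encoded by alternative genes, and the levels of the alternatives were set side by side. The a subunit can be supplied by Atp6v0a1, Atp6v0a2, Tcirg1 (the a3 form, known for its part in bone-resorbing osteoclasts) or Atp6v0a4. Tcirg1 was the most abundant form in NT at 177 FPKM and had 168 FPKM in IL-4, a log2 ratio of -0.08 (-0.13 to -0.02). Atp6v0a2 had 10.22 and 9.31 FPKM, and Atp6v0a4 was listed in neither library. Atp6v0a1 thus made up 43.2% of the summed FPKM of the a forms in NT and 70.1% in IL-4, while the part of Tcirg1 was 53.7% and 28.3%. The order of these genes was reversed between the libraries, and the summed level of the family was 1.80-fold as high in IL-4, from 330 to 592 FPKM. Of the d forms, Atp6v0d2, which is not a member, rose from 548 to 978 FPKM with a log2 ratio of 0.84 (0.81 to 0.86), and it supplied 78.4% of the summed FPKM of the d forms in NT and 86.0% in IL-4. Atp6v1b2, Atp6v1c1, Atp6v1e1, Atp6v1g1 and Atp6v0e each supplied at least 99.4% of the summed FPKM of their families in both libraries. Among 4 genes used as osteoclast markers, Acp5 rose from 1326 to 3033 counts, Ocstamp was listed at 0 in NT and at 19 counts in IL-4, Ctsk had 5372 and 3570 counts (a log2 ratio of -0.62), and Calcr was not listed. The part of any osteoclast-like cells in the levels of the subunits was not tested.

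**Figure D2:**
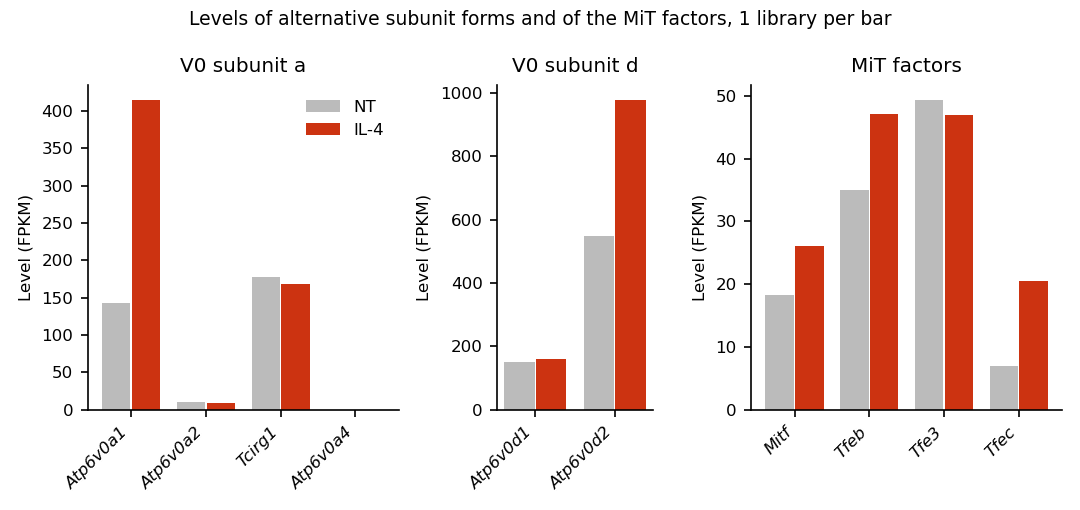
Levels in FPKM (vertical axes, from 0) of the genes for V0 subunit a, of the genes for V0 subunit d and of the 4 MiT factors, with 1 library per bar (grey, NT; red, IL-4). Atp6v0a1 stands below Tcirg1 in NT (142 against 177 FPKM) and above it in IL-4 (415 against 168 FPKM), and Atp6v0d2 exceeds Atp6v0d1 in both.

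The V1 sector hydrolyses ATP in the cytosol. None of its 8 members passed the threshold, but 7 of the 8 ratios were above 0 and the intervals of 6 lay above 0, beside 36.9% of genes of like depth. After the trend with transcript length was subtracted, 5 ratios and 4 intervals were above 0, and the intervals of 2 members, Atp6v1c1 and Atp6v1f, lay below 0. Atp6v1b2, the B subunit that shares the nucleotide-binding sites with subunit A, came closest to being called. It had 10872 counts in NT and 17972 in IL-4, or 358 and 580 FPKM, with a log2 ratio of 0.70 (0.66 to 0.73), and it would be called at a threshold of 1.5-fold, which 6.38% of genes of like depth passed upward. Atp6v1h, a regulatory subunit that controls coupling of the sectors, had 1856 and 2704 counts and a log2 ratio of 0.52 (0.43 to 0.60). Among the genes of like depth, 174 had a higher ratio than Atp6v1b2 and 282 had a higher ratio than Atp6v1h. The catalytic subunit Atp6v1a had 11747 and 14834 counts, with a log2 ratio of 0.31 (0.27 to 0.34). The stalk subunit Atp6v1g1 had 4245 and 5349 counts and the same log2 ratio of 0.31 (0.25 to 0.36). Ratios were smaller for Atp6v1d, of the central stalk (1348 and 1600 counts, 0.22 on the log2 scale), and for Atp6v1e1, of the peripheral stalks (3967 and 4565 counts, 0.17). The intervals included 0 for the other V1 members. Atp6v1f, also of the central stalk, had 2142 and 2279 counts and a log2 ratio of 0.06 (-0.02 to 0.15). Atp6v1c1, which joins the stalks and is released when the sectors come apart, had 5614 and 5617 counts and a log2 ratio of -0.03 (-0.08 to 0.03). On the FPKM scale the V1 members ranged from 81.52 to 358 in NT and from 101.63 to 580 in IL-4, with Atp6v1b2 at the top in both.

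The accessory proteins of the pump had ratios on either side of 0. Atp6ap1, which helps to assemble the V0 sector, had 5914 counts in NT and 5646 in IL-4, a log2 ratio of -0.09 (-0.15 to -0.04). Atp6ap2, also known as the prorenin receptor, had 2861 and 3405 counts, a log2 ratio of 0.22 (0.15 to 0.30). Summed over the 15 pump genes, abundance was 7417 CPM in NT and 9685 CPM in IL-4, a log2 ratio of 0.39 (0.37 to 0.40), and 13 of the 15 single ratios were above 0 (7 of 15 after subtraction of the trend with length). Without Atp6v0a1 the sums were 6843 and 8012 CPM, a log2 ratio of 0.23 (0.21 to 0.24). These sums were not adjusted for transcript length. Against 0.01 over the genes of like depth, the median ratio of the pump genes was 0.18. Their transcripts were short, with a median length of 1617 bases against 3101 for the genes of like depth, and ratios in these libraries varied with transcript length. After the trend with length was subtracted, the median of the pump genes was -0.014, that of the V1 members went from 0.26 to 0.10 and that of the V0 members from 0.13 to -0.07. The values of the genes with the highest ratios moved less than these medians, to 1.63 for Atp6v0a1, 0.66 for Atp6v1b2 and 0.42 for Atp6v1h. Small shifts were not particular to high ratios. Atp6v1c1 went from -0.03 to -0.09 and Atp6ap2 from 0.22 to 0.16.

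Of the 6 proteins of the lysosomal membrane, Laptm4a rose and the other members had ratios between -0.13 and 0.14. Laptm4a (chromosome 12, 8921307 to 8938742) encodes a membrane protein needed for synthesis of the glycolipid globotriaosylceramide. It had 2995 counts in NT and 5363 in IL-4, or 127 and 224 FPKM. The log2 ratio was 0.81 (0.75 to 0.88), which is 1.76-fold (1.68 to 1.84), and it was 0.75 after the trend with length was subtracted. It stood at the edge of the threshold, and 126 of the genes of like depth had a higher ratio. Lamp1 and Lamp2 are the heavily glycosylated proteins that line the inner face of the membrane. Lamp1 was among the most abundant genes of these cells, at place 18 in both libraries, with 2174 FPKM in NT and 2206 in IL-4 and a log2 ratio of 0.02. Lamp2 had 289 and 314 FPKM and a log2 ratio of 0.14 (0.10 to 0.19). Laptm5, a relative of Laptm4a found in blood cells, had 1076 and 982 FPKM and a log2 ratio of -0.13 (-0.16 to -0.11). The calcium channel Mcoln1 (61.15 and 55.90 FPKM) had a log2 ratio of -0.13 (-0.24 to -0.02), and Cln3 (37.28 and 35.36 FPKM), the protein lost in juvenile Batten disease, had one of -0.08 (-0.21 to 0.05). In summed abundance the 6 genes stood at 8649 CPM in NT and 8761 CPM in IL-4.

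**Figure D3:**
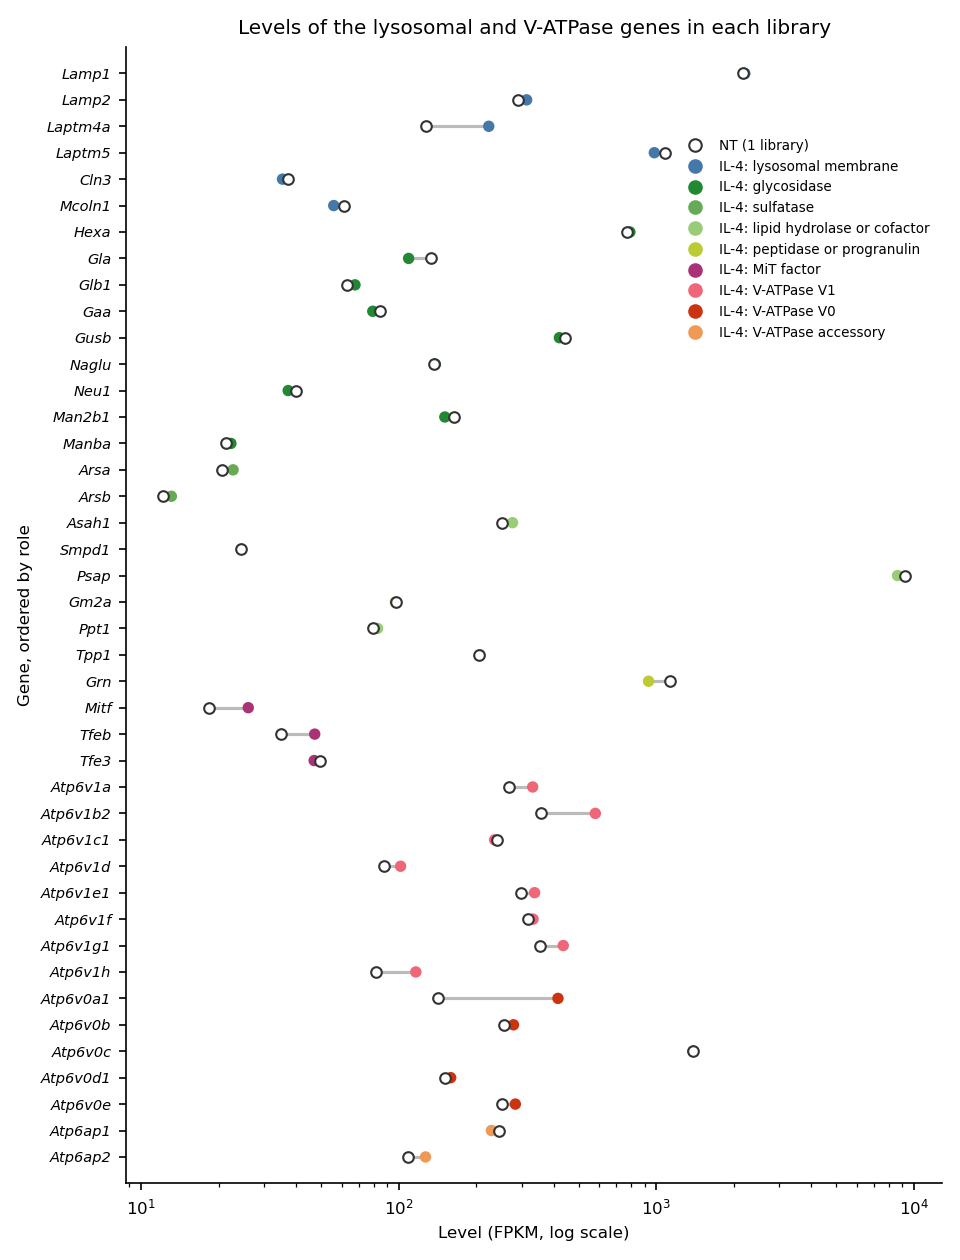
Level of each of the 42 members in FPKM (horizontal axis, log scale), ordered by role, with NT as open circles and IL-4 as filled circles coloured by role, 1 library each. Levels run from Arsb at 12.18 FPKM in NT to Psap at 9230, and the grey bars joining the libraries are long for Atp6v0a1, Atp6v1b2 and Laptm4a and short for the hydrolases.

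Ratios of the hydrolases and their cofactors, with Grn counted among them, were small. None of the 18 was called in either direction, all lay between -0.28 and 0.14 on the log2 scale, and their median was 0.01. That range also held 43.1% of the genes of like depth. Levels within the group differed far more than between the libraries: from 12.18 FPKM for Arsb to 9230 for Psap in NT, which is 758-fold, and from 13.09 to 8640 in IL-4, which is 660-fold. Summed abundance was 33557 CPM in NT and 31522 CPM in IL-4, a log2 ratio of -0.09, most of it from Psap.

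Among the 9 glycosidases, which remove sugars from glycolipids and glycoproteins, Hexa and Gusb were the most abundant. Hexa, a chain of the enzyme that degrades GM2 ganglioside, had 772 FPKM in NT and 790 in IL-4, a log2 ratio of 0.03. Gusb, the beta-glucuronidase, had 441 and 420 FPKM, a log2 ratio of -0.07 (-0.10 to -0.03). Gla, which degrades globotriaosylceramide, had a ratio as low as that of Grn, and these were the lowest of the members. It had 4478 counts in NT and 3748 in IL-4, or 133 and 109 FPKM, and a log2 ratio of -0.28 (-0.35 to -0.22). The alpha-mannosidase Man2b1 had 164 and 151 FPKM (-0.12 on the log2 scale), the heparan sulfate enzyme Naglu 137 and 139 FPKM (0.01), and the acid alpha-glucosidase Gaa, which degrades glycogen, 84.87 and 79.24 FPKM (-0.10). The beta-galactosidase Glb1 had 63.09 and 67.59 FPKM (0.10), the sialidase Neu1 39.72 and 37.20 FPKM (-0.09), and the beta-mannosidase Manba 21.40 and 22.29 FPKM (0.06). Gla, Glb1, Neu1 and Arsb had counts that were not whole, so some of their reads were divided with another transcript by estimate.

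The 2 sulfatases had low levels, with Arsb the lowest of all members in both libraries. Arsa, which removes sulfate from sulfatide, had 20.61 FPKM in NT and 22.73 in IL-4, a log2 ratio of 0.14 (0.0031 to 0.28). Arsb, which acts on dermatan sulfate, had 12.18 and 13.09 FPKM, a log2 ratio of 0.10 (-0.07 to 0.28).

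The genes of lipid breakdown were led by Psap, the precursor of the saposins that present lipids to their enzymes. Psap was at place 5 among all genes in both libraries, with 266093 counts in NT and 254433 in IL-4, or 9230 and 8640 FPKM. Its log2 ratio was -0.09, and at this depth the interval was narrow (-0.10 to -0.08). Acid ceramidase, Asah1, had 251 and 276 FPKM, a log2 ratio of 0.14 (0.09 to 0.19). The GM2 activator Gm2a had 97.81 and 96.99 FPKM (-0.01), the palmitoyl-protein thioesterase Ppt1 79.12 and 82.72 FPKM (0.06), and acid sphingomyelinase, Smpd1, 24.32 and 24.49 FPKM (0.01). The intervals of Gm2a, Ppt1 and Smpd1 included 0. Of the remaining members, the tripeptidyl peptidase Tpp1 had 204 and 207 FPKM, a log2 ratio of 0.02 (-0.03 to 0.06). Grn, the precursor of the granulins, had 1130 FPKM in NT and 933 in IL-4. Its log2 ratio was -0.28 (-0.30 to -0.25), or 0.826-fold, and its interval overlapped that of Gla. After the trend with length was subtracted, Grn was the lower of the pair, at -0.35 against -0.29.

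The MiT factors, which bind the CLEAR element, did not reach the threshold. Mitf had 997 counts in NT and 1448 in IL-4, or 18.29 and 26.03 FPKM, and a log2 ratio of 0.51 (0.39 to 0.63). Tfeb had 913 and 1254 counts, or 35.01 and 47.15 FPKM, and a log2 ratio of 0.43 (0.31 to 0.55). Both were higher in IL-4 beyond counting error, and 285 and 351 genes of like depth had a higher ratio than Mitf and Tfeb. Tfe3 had 1688 and 1630 counts, 49.35 and 46.92 FPKM, and a log2 ratio of -0.08 (-0.18 to 0.02). Tfec, the fourth gene of the family and not a member, had 135 and 409 counts, or 6.89 and 20.48 FPKM, and rose by a log2 ratio of 1.57 (1.29 to 1.86). By summed FPKM of the family, Tfe3 made up 45.1% in NT and 33.4% in IL-4, Tfeb 32.0% and 33.5%, Mitf 16.7% and 18.5%, and Tfec 6.29% and 14.6%. In IL-4 the levels of Tfeb and Tfe3 were about equal. The activity of these factors depends on their entry into the nucleus, which was not measured here.

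Promoter sequences were searched for the E-box at the core of the CLEAR element, TCACGTGA, because it is the motif that the MiT factors bind. The windows ran from 250 bases before to 50 bases after each start (RefSeq, GRCm38.p6) and were available for 37 of the 42 members, in 46 windows. The motif reads the same on both strands, and the shorter E-box CACGTG lies inside every match. It was found in 6 of the 46 windows (13%), in 3 of 13 windows of the pump genes (23.1%), in 0.974% of all 32851 windows and in 1.67% of the windows of genes listed in either library. The 30-base stretches around the 7 matches are shown 5′ to 3′ on the strand of the gene, with the motif in capitals. They come from chr8:3500462-3500491 (plus strand, Mcoln1), chr7:126583340-126583369 (minus strand, Cln3), chr16:44139373-44139402 (minus strand, Atp6v1a), chr8:105566050-105566079 (minus strand, Atp6v0d1), chr17:26676387-26676416 (plus strand, Atp6v0e), and chrX:134601215-134601244 and chrX:134601182-134601211 (minus strand, Gla).
Mcoln1: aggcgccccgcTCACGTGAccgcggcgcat
Cln3: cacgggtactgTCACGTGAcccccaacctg
Atp6v1a: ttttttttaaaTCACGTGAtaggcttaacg
Atp6v0d1: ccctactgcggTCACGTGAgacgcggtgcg
Atp6v0e: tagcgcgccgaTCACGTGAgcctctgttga
Gla, upstream match: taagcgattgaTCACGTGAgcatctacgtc
Gla, downstream match: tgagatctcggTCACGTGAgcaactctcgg

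Counted in bases from the start of each window's transcript, the matches began at -46 in Mcoln1, -122 in Cln3, -132 in Atp6v1a, -4 in Atp6v0d1, -228 and -195 in Gla, and 3 in Atp6v0e. The starts used for Cln3 and Atp6v1a lie inside the genes, 2581 and 443 bases from the outermost start. The log2 ratios of these 6 genes ran from -0.28 (Gla) to 0.31 (Atp6v1a), with a median of -0.0049, and 0 of them were called. Over the 31 members with a window and no match, the median was 0.03 and 2 were called. Over all 243 genes compared that hold the motif, the median was -0.02 and 10 were called higher, beside 4.07% of all genes compared. CACGTG was found in 12 of the 46 windows (26.1%), against 7.15% of all windows and 9.29% of those of listed genes, and Lamp1 held 4 copies. A match is a description of these letters, and the absence of one says nothing of the factor. The 2 called members without a match are Atp6v0a1 and Laptm4a. The only window of Atp6v0a1 lies inside the gene and not at its outermost start. The start of Laptm4a in RefSeq differs from that in the GENCODE annotation, so its window may not hold its promoter.

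The spacing preferred by Stat6, TTC and GAA with 4 bases of any kind between them (also the same on both strands), was found in 3 of the 46 windows of the members (6.52%), those of Cln3, Gm2a and Tfeb. It was found in 6.95% of all windows, in 5.6% of the windows of genes listed in either library, and in 10.5% of the windows of the wider lysosome list described next. The starts of the matching windows of Cln3 and Tfeb lie inside the genes, 2581 and 48707 bases from the outermost start, and 0 of these 3 members were called. Over all 812 genes compared that hold the spacing, 58 were called higher, beside 635 of all 15593 genes compared (4.07%). Genes with no window are included in the latter. A count over 3 genes cannot show a difference from either share. Of the 10 genes of the wider list with a match, Atp6v1g3 was listed in neither library. Acp5 and Tfec were called higher and Ncoa7 lower, beside 4.07% higher and 6.28% lower over all genes compared. So few genes cannot show a difference from these shares. The starts of the matching windows of Acp5 and Ncoa7 lie inside the genes, 5148 and 151833 bases from the outermost start.

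Other genes of the lysosome were taken from a wider list of 105 genes, of which 100 were listed in either library. Of these, 5 rose and 6 fell, beside the 4.07% higher and 6.28% lower over all genes, and the median log2 ratio of the listed genes was -0.01. The genes that rose included enzymes. The lysosomal phospholipase Pla2g15 had 2185 counts in NT and 4568 in IL-4, a log2 ratio of 1.04 (0.96 to 1.11). Acp5, the tartrate-resistant acid phosphatase, had a log2 ratio of 1.17 (1.07 to 1.26). Atp6v0d2 and Tfec, described above, were also among the genes that rose.

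The wider genes that fell included a hydrolase, a pair of transporters or channels, a pair of genes tied to pump assembly or control, and a regulator of the MiT factors. The hyaluronidase Hyal1 had 262.70 counts in NT and 83.37 in IL-4, and its log2 ratio was -1.68. Counts of the channel Tpcn1 were 1125 and 448, with a log2 ratio of -1.36. Those of the amino acid transporter Slc36a1 were 1557 and 907, with a log2 ratio of -0.81 that was -0.58 after the trend with length was subtracted. Fnip2, a partner of folliculin in the signalling of amino acids to mTORC1, fell from 6648 to 2787 counts, with log2 ratios of -1.28 before and -0.89 after that subtraction. Dmxl2, which takes part in pump assembly, fell from 678 to 360 counts, and Ncoa7, a V-ATPase-binding protein, from 302 to 169. Their log2 ratios were -0.94 and -0.86, and after the subtraction they were -0.42 and -0.65, short of the threshold. The listed wider genes ran from -1.68 to 1.57, against -0.28 to 0.14 for the hydrolases among the members. These sets are not alike, because the wider list holds other roles and genes with as few as 2 reads. The 10th to 90th percentile of the genes of like depth to the members ran from -0.55 to 0.42.

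**Figure D4:**
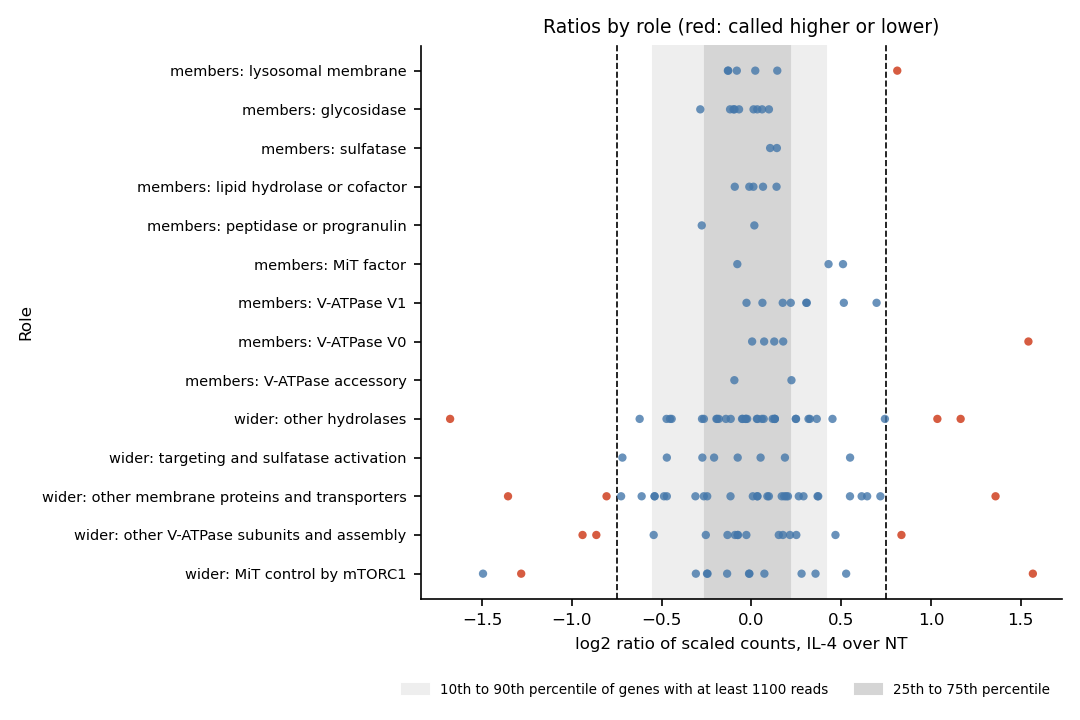
Log2 ratio of IL-4 over NT (horizontal axis) for the 42 members and for the listed genes of the wider lysosome list, 1 point per gene, in rows by role. Shaded bands span the 10th to 90th and the 25th to 75th percentile of genes with at least 1100 reads, dashed lines mark a ratio of 0.75 in size, and red points were called, 2 among the members and 11 among the wider genes.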

How the data were processed

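RNA sequencing reads were mapped by the authors to GRCm38/mm10 with Bowtie and quantified with RSEM, whose versions are not given in the sources used here. The deposited tables hold, per gene, an expected count (estimated reads, not scaled for depth), FPKM (scaled by the authors for transcript length and assigned fragments) and, per the file headers, the transcript length weighted over isoforms. Groups were taken from the sample titles. Gene numbers were paired with symbols through a RefSeq table (15587 of 15623 matched, 42 of 42 members).

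Ratios used expected counts scaled to library totals with 0.5 count added. Expected counts were rounded for the intervals, and 30 genes at 0 in both libraries after rounding were left out. For each gene an exact 95% interval (Clopper-Pearson) was put on the fraction of its reads that came from IL-4, and was carried to the log2 scale. Reads copied by PCR and carrying no molecular identifier are not separate molecules, so intervals and floors cover counting error only. With 1 library per group no p-value was computed for the main ratios. Calls needed a log2 ratio of at least 0.75, the threshold of the study for this comparison. To subtract the trend with length, the median ratio was taken over the 200 genes closest in transcript length (at least 200 reads each). Alternatives used edgeR 4.0.16 for TMM scaling and for an exact test that assumes a biological coefficient of variation, DESeq2 1.42.0 for median-of-ratios scaling, and other totals, FPKM, thresholds and filters. Scripts ran in R 4.3.3 and in Python 3.11.15 with scipy 1.17.1, numpy 2.4.6, matplotlib 3.10.9 and pandas 2.3.3. The calling procedure was tested on simulated data with known folds and counting error only. Such data hold no variation between mice or cultures, so the test says nothing of calls that this variation would produce.

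All 42 members were named, with genes of the wider list where called (1 of which is not reported here), Tcirg1 and Atp6v0d2 as other forms of subunits, and Arg1 and Mrc1 as a check of the label. Atp6v0a2 and Atp6v0a4 were named as further forms after the values were seen. The members and lists were chosen with earlier results of these data known.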

Additional observations from a re-analysis of the deposited data

How the results depend on the processing

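With 1 library per group, counting intervals say nothing of the variation between mice or cultures, and no replicate could be left out. No paired analysis was possible because there was only 1 sample in NT and 1 in IL-4. Of 13 alternatives, scaling (TMM, median-of-ratios, a total without the 100 most abundant genes) moved the median of all genes by at most 0.037 and changed no call of a member. The 2 members called higher became 1 (Atp6v0a1) when the threshold was a log2 ratio of 1, 1 (Atp6v0a1) when the edgeR exact test assumed a coefficient of 0.2, and 0 when it assumed 0.4, and Laptm4a lost its call under each of these. Over all genes, the 635 called higher and 979 lower became 474 and 580 at a log2 ratio of 1. They became 178 and 80 at a coefficient of 0.2, and 41 and 4 at 0.4. At 1.5-fold, Atp6v1b2 (0.70) was called as well, and 3 members were higher, beside 860 of all genes higher and 1378 lower. No member was called lower under any of the alternatives. Subtracting the trend with length took the median of the members from 0.06 to -0.011 and that of the pump genes from 0.18 to -0.014, and the cause of the trend was not tested. No called ratio changed sign. Depth limited Arsb most, whose interval ran from -0.07 to 0.28.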
